A study of Mus musculus with 8 samples.

Results

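Most of the genes described here encode the nuclear-encoded subunits of oxidative phosphorylation (OXPHOS), measured by RNAseq in mouse striatum. Members were chosen by gene symbol: the Ndufa, Ndufb, Ndufc, Ndufs and Ndufv series, the Uqcr series, Sdha to Sdhd, the numbered Cox subunits of cytochrome c oxidase and the Atp5 series, without symbols that contain -ps. The rule found 98 of the 55032 gene rows, and 91 of them passed the filter on low counts, as did 18294 rows in all. Complex I held 39 members, complex II 4, complex III 8, complex IV 21 and complex V 18, and 8 more were complex I assembly factors (Ndufaf). Ndufa4 and Ndufa4l2 were counted with complex IV, where their proteins sit, together with the supercomplex factor Cox7a2l. The rule also took in rows annotated as processed pseudogenes, which are intronless reinsertions of an mRNA. These were Ndufs6b, Ndufb4c and Ndufa11b, counted with complex I, and Cox6c2, counted with complex IV. Of them only Ndufs6b passed the filter. The rule leaves out 9 rows with -ps, among them Ndufb1-ps, which had 175 to 266 counts per mouse.

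Striatum was taken from 4 wild type (WT) and 4 16p11.2+/- female C57BL/6 mice at postnatal day 60. The 16p11.2+/- mice carry 1 deleted copy of the region of mouse chromosome 7 that corresponds to human 16p11.2, in every cell of the body, and the labels name no treatment for either group. Each library came from 1 mouse and is named here by genotype and mouse number (WT-1015, WT-1041, WT-1061 and WT-1063, and DF-1018, DF-1037, DF-1059 and DF-1062 for 16p11.2+/-). Library totals ran from 15125051 to 16523429 counts. In the comparison of genotypes 17 genes of chromosome 7, between chr7:126695401-127208468 (GRCm38), were lower in 16p11.2+/- mice, which checks the genotype labels.

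OXPHOS is the chain of protein complexes in the inner mitochondrial membrane that turns the energy of food into ATP. Complexes I and II take electrons from NADH and succinate, complex III passes them to cytochrome c, complex IV passes them to oxygen, and complex V uses the proton gradient that the chain builds to make ATP. Most subunits are encoded in the nucleus and imported, while a small set is encoded in mitochondrial DNA, so each complex except complex II is assembled from the products of both genomes. Neurons draw most of their ATP from this pathway, and fast-spiking neurons are known for a high demand.

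The tissue label was checked against marker genes, because it bears on every result below. All 10 markers of medium spiny neurons, the main striatal cell type, were detected in each mouse, but they held 0.165% of counts in DF-1037 and 0.130% in DF-1062, against 0.418% to 0.683% in the other 6 mice. All 7 markers of thalamus neurons (Tcf7l2, Lef1, Ramp3, Prkcd, Slc17a6, Tnnt1 and Ntng1), none of them at 0 in any library, held 0.105% of counts in WT-1063, 0.0584% in DF-1018, 0.109% in DF-1037 and 0.0802% in DF-1062. In the other 4 mice these 7 markers held 0.00767% to 0.0126% of counts. High thalamus markers were thus found in both genotypes, in 1 WT and 3 16p11.2+/- mice. No marker gene passed the adjusted test between genotypes, but whole lists leaned one way. All 7 thalamus markers were positive (median log2 fold change, 16p11.2+/- against WT, 0.86), as were all 5 tested of parvalbumin interneurons (0.55), while all 10 of medium spiny neurons (-0.52), all 7 of cortical glutamatergic neurons (-0.58), all 8 of oligodendrocytes (-0.37), all 4 tested of choroid plexus (-2.45) and all 5 of erythrocytes (-0.25) were negative. Medians were 0.04 for 6 astrocyte, -0.06 for 6 microglia and -0.06 for 8 mural cell markers. The part of tissue makeup in the genotype values below was not tested, apart from the fit with the thalamus score. In such bulk tissue, fewer cells of a type and less RNA per cell cannot be told apart.

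OXPHOS members took up similar shares of the libraries in both genotypes. The 98 members together held 0.613%, 0.596%, 0.636% and 0.737% of counts in WT-1015, WT-1041, WT-1061 and WT-1063. In DF-1018, DF-1037, DF-1059 and DF-1062 they held 0.637%, 0.752%, 0.640% and 0.711%. The WT mean was 0.645% ± 0.0629 (SD, n = 4). The mean of the 16p11.2+/- mice was 0.685% ± 0.0564 (SD, n = 4), so the difference was smaller than either spread. WT-1063 and DF-1037 were the highest library of their genotype.

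No member passed the test between genotypes. In edgeR's quasi-likelihood test with Benjamini-Hochberg adjustment, 0 of 91 members had an adjusted p under 0.05, where 0.109% of all genes tested did, and the smallest adjusted p of a member was 0.859. At an unadjusted p under 0.05 the count was also 0 of 91, against 4.32% of all genes. DESeq2 called 0 members as well (background 0.169%), and 1, Ndufa12, had an unadjusted p under 0.05 there (background 4.66%) and in limma-voom (background 4.27%). The FPKM (fragments scaled to exon length and library total) of the genotypes did not separate for any of the 91 members, against 2.83% of all genes.

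The log2 fold changes (16p11.2+/- against WT) were small and mostly above 0. They were positive for 64 of 91 members (70.3%) and for 48.2% of all genes tested, and the median was 0.05 for the members and -0.01 for all genes. The size was under 0.2 for 81 members (89.0%) and for 63.6% of all genes. By complex, the medians were 0.05 for complex I, 0.04 for II, 0.05 for III, 0.04 for IV and 0.05 for V, and 0.06 for the assembly factors. The 95% confidence interval lay within -0.5 and 0.5 for 77 of the 91 members, including all members of complexes II and III, so changes past 1.41-fold were outside the interval for these. The direction of the median is not fixed: it was -0.03 with the thalamus marker score as a covariate, and then 30 of 91 values were positive. It was -0.00 without DF-1037, 0.01 without WT-1041, 0.08 without DF-1059 and 0.10 without WT-1063.

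**Figure D1:**
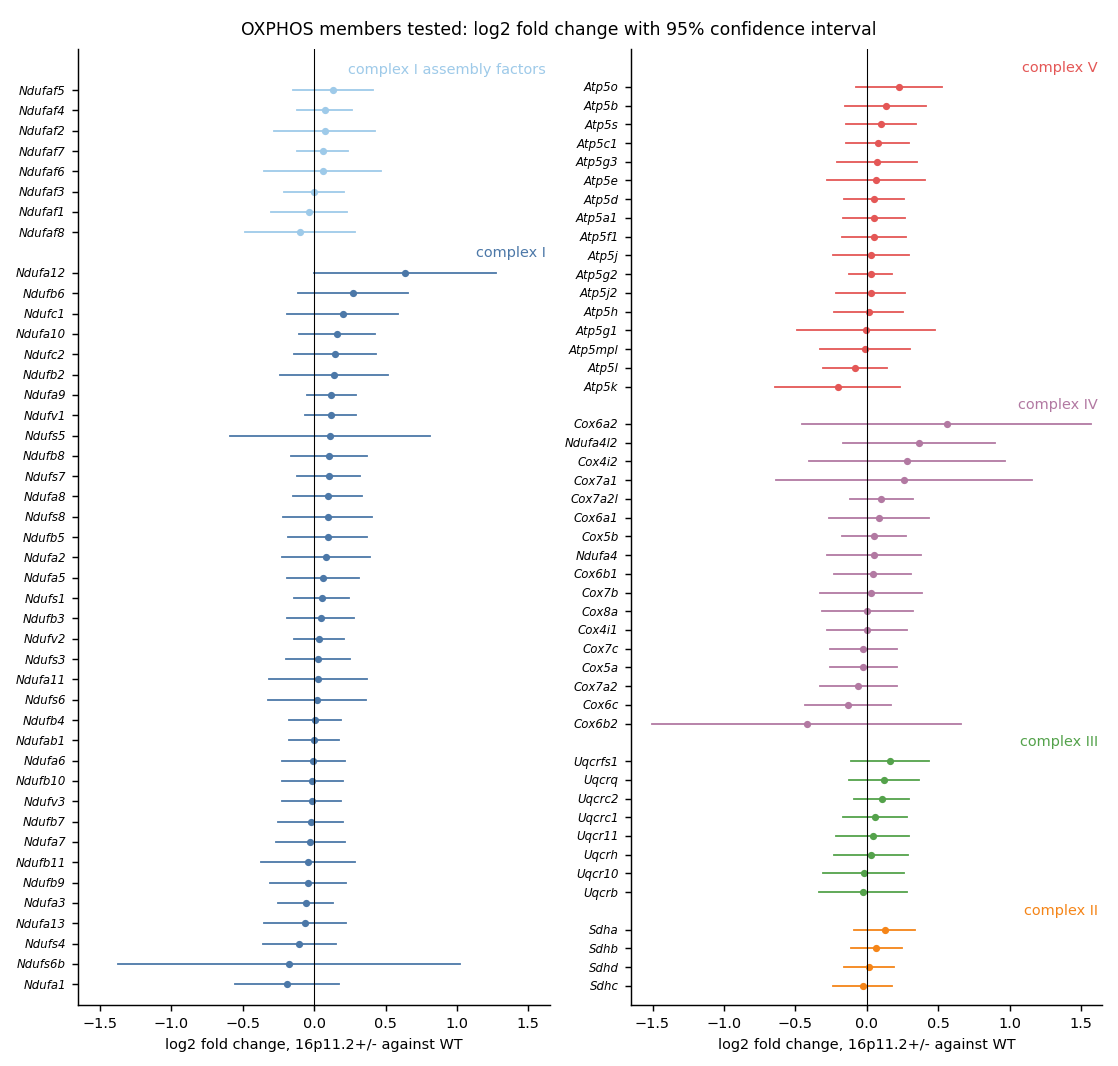
Log2 fold change (16p11.2+/- against WT, x axis) of 90 of the 91 members tested, with its 95% confidence interval from edgeR, grouped by complex. Points cluster near 0 and most lie slightly above it. Ndufa12 (0.64) and Cox6a2 (0.56) lie farthest to the right, and the widest intervals belong to Ndufs6b, Cox6b2 and Cox6a2.

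Complex I is the largest complex of the chain, and its most abundant transcripts per length of exon were those of accessory subunits. Ndufb10 had FPKM of 56.0, 56.5, 62.6 and 70.4 in WT-1015, WT-1041, WT-1061 and WT-1063, and of 59.3, 66.1, 62.9 and 58.6 in DF-1018, DF-1037, DF-1059 and DF-1062. Ndufa8, in the same order of mice, had FPKM of 49.2, 60.8, 57.9 and 66.3 in WT and of 53.3, 68.4, 62.1 and 70.6 in 16p11.2+/- mice. Ndufc2 had FPKM of 48.1, 47.3, 52.2 and 69.4 in WT and of 54.5, 63.2, 58.7 and 67.9 in 16p11.2+/- mice. For all 3 genes the values of the genotypes overlapped, and the log2 fold changes were -0.01 (SE 0.09), 0.10 (SE 0.11) and 0.15 (SE 0.13).

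The member with the lowest unadjusted p was Ndufa12 (chr10:94198720-94221443, + strand), an accessory subunit of the peripheral arm. Its FPKM was 18.5, 10.5, 12.8 and 25.7 in WT-1015, WT-1041, WT-1061 and WT-1063, and 22.9, 19.4, 29.8 and 34.9 in DF-1018, DF-1037, DF-1059 and DF-1062. WT-1041 and WT-1061 were low, but WT-1063 lay above 2 of the 16p11.2+/- mice. Mean FPKM was 16.9 ± 6.76 (SD, n = 4) for WT against 26.7 ± 6.92 (SD, n = 4) for 16p11.2+/-. On the log2 scale the fitted change was 0.64 (SE 0.28, edgeR adjusted p = 0.859), with an unadjusted value of 0.0501. Part of the reads of this gene can fall on a near-identical copy elsewhere in the genome, which is described below.

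The next lowest p-values belonged to Atp5o, Ndufb6, Ndufa9 and Ndufa4l2. Ndufb6, an accessory subunit of the membrane arm, had FPKM of 26.4, 28.4, 29.2 and 37.1 in WT-1015, WT-1041, WT-1061 and WT-1063, and of 25.5, 43.8, 37.0 and 42.8 in DF-1018, DF-1037, DF-1059 and DF-1062. Ndufa9, which binds NADPH and helps to anchor the peripheral arm, ranged from 30.5 to 35.0 in WT and from 32.6 to 38.5 in 16p11.2+/- mice. The log2 fold changes were 0.27 (SE 0.17) for Ndufb6 and 0.12 (SE 0.08) for Ndufa9, and the genotypes overlapped for both. Exons of other genes overlap 39.0% of the exon length of Ndufb6, so its count is uncertain unless counting used strand, which the sources used here do not state.

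Complex II, succinate dehydrogenase, is also an enzyme of the citric acid cycle and is encoded by nuclear genes alone. Sdha, its flavoprotein, had FPKM of 87.7, 86.9, 88.5 and 104 in WT-1015, WT-1041, WT-1061 and WT-1063, and of 92.8, 101.0, 94.8 and 118 in DF-1018, DF-1037, DF-1059 and DF-1062. The membrane anchor Sdhd ranged from 41.6 to 49.2 in WT and from 42.4 to 50.8 in 16p11.2+/- mice, and the iron-sulfur subunit Sdhb from 27.3 to 32.6 and from 29.6 to 35.3. WT-1063 and DF-1062 were the highest for Sdha, and values of the genotypes overlapped for all 3 genes. The log2 fold changes were 0.13 (SE 0.09) for Sdha, 0.02 (SE 0.08) for Sdhd and 0.07 (SE 0.08) for Sdhb. This complex showed the smallest spread between mice, with a median coefficient of variation (CV) of FPKM of 8.04% in WT and 7.77% in 16p11.2+/- mice.

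In complex III the 3 members with the highest FPKM were Uqcrh, the hinge protein near cytochrome c1, the small subunit Uqcr10 and the core protein Uqcrc2. Uqcrh ranged from 49.9 to 67.7 FPKM in WT and from 54.6 to 68.0 in 16p11.2+/- mice, and Uqcr10 from 49.5 to 63.9 and from 43.1 to 64.4. Uqcrc2 had FPKM of 46.7, 49.7, 49.8 and 56.8 in WT-1015, WT-1041, WT-1061 and WT-1063, and of 52.7, 53.3, 51.0 and 64.6 in DF-1018, DF-1037, DF-1059 and DF-1062. DF-1062 stood above the other 3 mice of its genotype for Uqcrc2, and the genotypes overlapped for all 3 genes. The log2 fold changes were 0.03 (SE 0.11), -0.02 (SE 0.13) and 0.10 (SE 0.09).

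Complex IV, cytochrome c oxidase, held the member with the highest FPKM. Cox8a had FPKM of 211, 212, 208 and 225 in WT-1015, WT-1041, WT-1061 and WT-1063, and of 212, 273, 212 and 171 in DF-1018, DF-1037, DF-1059 and DF-1062. Cox6a1 ranged from 152 to 195 FPKM in WT and from 154 to 240 in 16p11.2+/- mice, and Cox4i1 from 131 to 172 and from 136 to 177. The 16p11.2+/- mice were thus the more widely spread for Cox8a and Cox6a1, with DF-1037 the highest mouse for all 3 genes. The log2 fold changes were 0.00 (SE 0.14), 0.09 (SE 0.15) and 0.00 (SE 0.12).

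Several complex IV subunits exist in paired forms, a widely expressed one and one that is restricted to muscle, lung, testis or other tissues, and the c-ring subunit of complex V has 3 genes. In all 8 mice the widely expressed form of each complex IV pair was far above its partner. The ratio of Cox4i1 to Cox4i2, the form known from lung and oxygen-sensing cells, ran from 64.6 to 138, and that of Cox6b1 to Cox6b2, known from testis, from 42.3 to 229. Cox7a2 exceeded the muscle form Cox7a1 by 29.2 to 70.6 times, and Ndufa4 exceeded Ndufa4l2, known from hypoxic cells and pericytes, by 35.2 to 64.7 times. The c-ring genes lay closer together, and Atp5g3 was 3.31 to 5.04 times as high as Atp5g1 and 2.06 to 2.95 times as high as Atp5g2. These are ratios of FPKM, that is, per length of exon.

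No ratio passed the test between genotypes. The lowest p over the 7 pairs tested was that of Ndufa4 to Ndufa4l2, whose log2 ratio averaged 5.75 ± 0.36 (SD, n = 4) for WT against 5.42 ± 0.21 (SD, n = 4) for 16p11.2+/- (exact two-sided permutation test, p = 0.171, Benjamini-Hochberg adjusted over the pairs 0.633). The other 6 exact p-values lay between 0.286 and 0.657, where the smallest value the 70 assignments allow is 0.0286. Each mouse was also left out in turn for each of the 7 pairs. Without WT-1041 the log2 difference of the Ndufa4 to Ndufa4l2 ratio was -0.52. Its exact permutation p of 0.0286 was not adjusted, was picked from these outcomes and is the smallest that the remaining mice allow. Ndufa4l2 had only 16 to 33 counts per mouse.

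Cox6a2 varied between mice within both genotypes. It is the form of heart and skeletal muscle, and in brain it is known from parvalbumin interneurons. Its counts were 36, 29, 33 and 76 in WT-1015, WT-1041, WT-1061 and WT-1063, and 74, 98, 26 and 59 in DF-1018, DF-1037, DF-1059 and DF-1062. The 4 high mice were those with high thalamus markers. FPKM of Pvalb in the same order was 11.8, 10.4, 20.2 and 75.9, and 42.0, 103, 19.3 and 25.9, and the part of either cell type in the Cox6a2 values was not tested. The log2 fold change between genotypes was 0.56 (SE 0.45, edgeR adjusted p = 0.859), and -0.08 with the thalamus marker score as a covariate. Cox6a2 (chr7:128205435-128206387) is also the member nearest to the deleted region, 997 kb beyond the last of the 17 lower genes, and the other 9 members on chromosome 7 lie 4594 kb or more away.

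**Figure D2:**
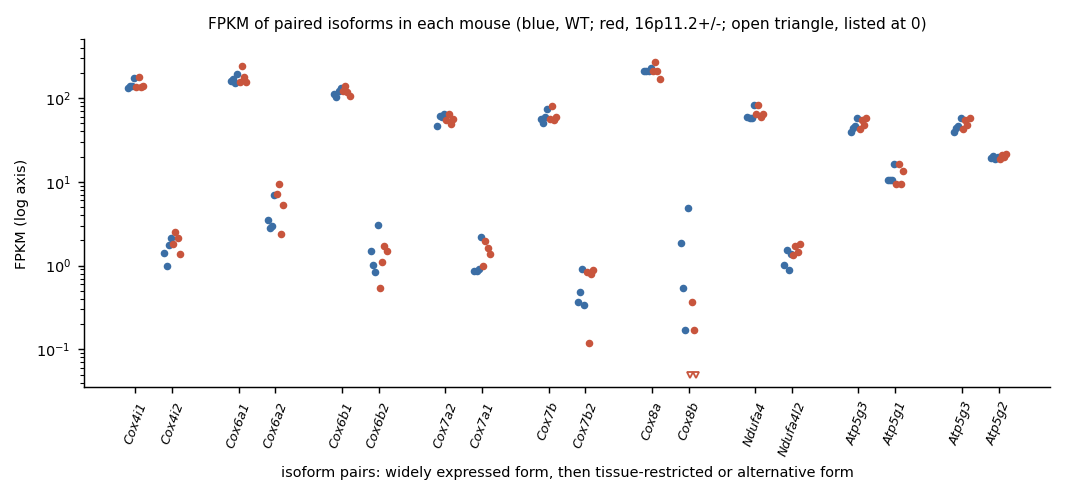
FPKM (log axis) of both genes of each isoform pair, 1 point per mouse, blue for WT and red for 16p11.2+/-. The widely expressed form of each complex IV pair lies well above its partner in every mouse, the Atp5g pairs lie close together, and Cox8b reaches 4.81 FPKM in WT-1063 but is listed at 0 in 2 of the 16p11.2+/- mice.

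The 7 members that did not pass the filter were Cox8b, Cox7b2, Cox6c2, Cox8c, Ndufb4c, Ndufa11b and the second of 2 rows named Atp5o. Cox8c, a testis form, and the second Atp5o row had 0 counts in every mouse, Ndufa11b had at most 1, and Cox7b2, Cox6c2 and Ndufb4c had between 1 and 11. Cox8b, the muscle and brown fat form, had 10, 3, 1 and 28 counts in WT-1015, WT-1041, WT-1061 and WT-1063, and 0, 2, 1 and 0 in DF-1018, DF-1037, DF-1059 and DF-1062. The pair of mice with the most Cox8b counts also had the most reads of 7 choroid plexus markers, 0.0665% of counts in WT-1015 and 0.594% in WT-1063 against 0.00290% to 0.0187% in the other 6. The part of choroid plexus in the Cox8b counts was not tested.

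Complex V, the ATP synthase, was represented most strongly by its catalytic head. Atp5a1, the alpha subunit, had FPKM of 202, 183, 208 and 230 in WT-1015, WT-1041, WT-1061 and WT-1063, and of 218, 209, 202 and 235 in DF-1018, DF-1037, DF-1059 and DF-1062. Atp5b, the beta subunit that holds the catalytic site, ranged from 174 to 235 in WT and from 198 to 254 in 16p11.2+/- mice, and Atp5c1, the central stalk, from 65.8 to 84.7 and from 74.0 to 84.2. WT-1041 was the lowest mouse for both Atp5a1 and Atp5b, and the genotypes overlapped. The log2 fold changes were 0.05 (SE 0.10), 0.13 (SE 0.12) and 0.08 (SE 0.10). Atp5o, the subunit that joins the head to the peripheral stalk, had FPKM of 19.5, 21.02, 20.8 and 27.0 in WT and of 21.6, 29.0, 23.4 and 31.0 in 16p11.2+/- mice (log2 fold change 0.22, SE 0.13). Exons of other genes, among them the second Atp5o row, a read-through, overlap 47.9% of the exon length of Atp5o, so its count is uncertain.

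Comparisons of level between members depend on the length used. The deposited FPKM divides by the length of all annotated exons of a gene, merged, which matched GENCODE M21 within 1% for 95.7% of the 12704 genes compared. That length was a median of 1.53 times that of the principal transcript for the 91 members, and over 3 times for 15. Atp5l, a small membrane subunit, had a mean FPKM of 7.26, and 85.9 when its counts were divided by the length of its principal transcript. Cox6c rose in the same way from 24.9 to 176, Cox4i1 from 146 to 296 and Atp5b from 210 to 464, whereas Cox8a stayed at 215 and 213. For the c-ring genes Atp5g3, Atp5g1 and Atp5g2 the mean FPKM was 48.6, 12.05 and 19.8. By the principal transcript the values were 148.5, 12.6 and 45.3, so the ratios given above for these genes depend on the length used. In rank among the members, Cox8a was number 1 by FPKM and number 5 by the principal transcript, and Atp5b was number 3 and number 1.

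Some members have near-identical copies elsewhere in the genome, mostly processed pseudogenes, which are intronless reinsertions of an mRNA. A copy at 98% identity or more over at least 150 bases, with a row of its own, was found for 14 of the 91 members tested, and the untested Ndufb4c is itself a copy of Ndufb4. Ndufs5 is a small subunit of the intermembrane space side of complex I (chr4:123712710-123718202, - strand), and its copy BC002163 lies at chr16:42955631-42955949 (+ strand, GRCm38), annotated as a processed pseudogene. The copy differs from the coding sequence at 2 of 319 bases, T81C and A105G, counted from 1 at the first base of the stretch with the base of Ndufs5 first. The first 150 bases of each are shown because they set which gene a read could be counted for, and the differing bases are in capitals.
Ndufs5: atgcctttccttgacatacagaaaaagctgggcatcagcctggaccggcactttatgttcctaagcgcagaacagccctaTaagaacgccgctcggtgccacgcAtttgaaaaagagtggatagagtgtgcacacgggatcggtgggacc
BC002163: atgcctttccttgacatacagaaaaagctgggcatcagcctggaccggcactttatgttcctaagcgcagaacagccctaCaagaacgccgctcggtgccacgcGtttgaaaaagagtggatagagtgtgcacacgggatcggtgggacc
The copy of Ndufa12, Gm15920 (chr5:130188395-130188796, + strand), likewise matches 402 coding bases with 2 differences, A99G and T378C. They are counted from 1 at the first base of the stretch, which is base 37 of the coding sequence. The first 150 bases of the stretch hold the first of these differences.
Ndufa12: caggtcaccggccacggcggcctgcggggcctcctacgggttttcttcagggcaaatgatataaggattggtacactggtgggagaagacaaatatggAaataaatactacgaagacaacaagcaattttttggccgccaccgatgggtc
Gm15920: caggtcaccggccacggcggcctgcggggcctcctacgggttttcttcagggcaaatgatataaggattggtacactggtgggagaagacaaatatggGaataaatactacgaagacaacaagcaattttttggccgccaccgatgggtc

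Counts of Ndufs5 were 437, 293, 273 and 352 in WT-1015, WT-1041, WT-1061 and WT-1063, and 247, 624, 285 and 336 in DF-1018, DF-1037, DF-1059 and DF-1062. Counts of BC002163 in the same order were 5, 177, 193 and 241, and 187, 8, 199 and 208. WT-1015 and DF-1037 thus had almost no reads on the copy, 1.13% and 1.27% of the sum of both, where the other 6 mice had 37.7% to 43.1%, and these mice were also the highest of their genotype for Ndufs5. In the sum the CV over 8 mice fell from 36.8% to 14.2% (of the scaled counts), and the log2 fold change went from 0.11 (SE 0.31) to 0.06 (SE 0.13). WT-1015 and DF-1037 belong to different genotypes, and the split did not separate the groups.

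For Ndufa12 the copy had 188, 307, 341 and 282 counts in WT-1015, WT-1041, WT-1061 and WT-1063, and 160, 450, 168 and 229 in DF-1018, DF-1037, DF-1059 and DF-1062. That was 30.0%, 54.9%, 50.8% and 30.2% of the sum in WT and 22.6%, 49.1%, 18.1% and 20.2% in 16p11.2+/- mice. The 4 mice with the lowest Ndufa12 counts, WT-1041, WT-1061, WT-1015 and DF-1037, had 30.0% to 54.9% on the copy, and the other 4 had 18.1% to 30.2%. With the copy added, the log2 fold change of Ndufa12 was 0.37 (SE 0.15, edgeR adjusted p = 0.859, unadjusted value 0.0388) in place of 0.64, and the CPM of the sum was 41.5, 36.5, 40.9 and 57.7 in WT and 46.5, 59.8, 57.0 and 68.6 in 16p11.2+/- mice. The genotypes still overlapped. For Atp5g1 the copy Gm10039 took 13.4% to 31.1% of the sum, for Atp5l the copies took 16.6% to 22.3%, and for the other 10 members at most 12.4%.

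**Figure D3:**
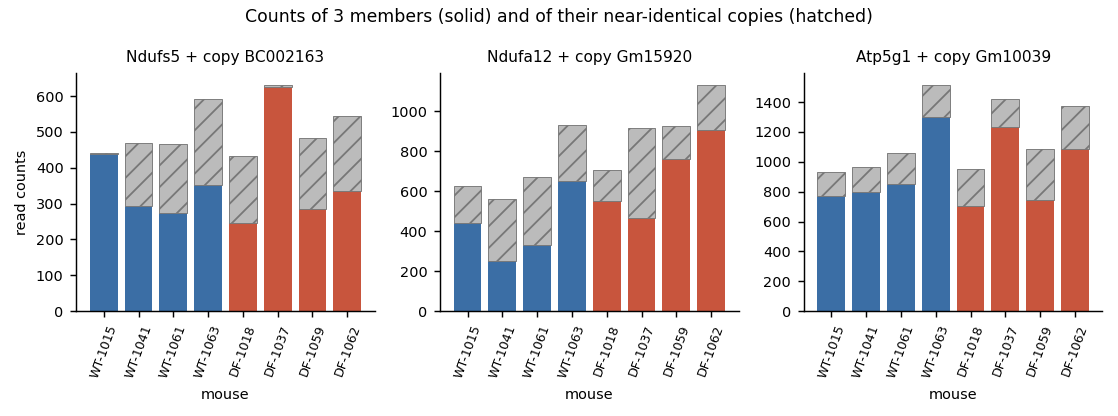
Read counts in each mouse (y axis) of Ndufs5, Ndufa12 and Atp5g1 (solid, blue for WT and red for 16p11.2+/-) with those of the near-identical copy stacked on top (hatched). The copy of Ndufs5 is nearly missing in WT-1015 and DF-1037, and the copy of Ndufa12 is largest in DF-1037.

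The difference of the members' mean level between genotypes was smaller than the spread within either. The mean log2 counts scaled to the library total (CPM) over the 91 members was 5.18, 5.09, 5.20 and 5.42 in WT-1015, WT-1041, WT-1061 and WT-1063, and 5.19, 5.46, 5.21 and 5.24 in DF-1018, DF-1037, DF-1059 and DF-1062. The mean was 5.22 ± 0.14 for WT (SD, n = 4) and 5.28 ± 0.12 for 16p11.2+/- (SD, n = 4). The range over the 8 mice was widest in complex IV (0.51) and narrowest in complex II (0.22) and the assembly factors (0.20). WT-1063 and DF-1037 were the highest mice and WT-1041 the lowest in each of the 5 complexes. WT-1063 lay above the mean of the other 3 WT mice for 86 of 91 members (50.8% of all genes), and DF-1037 above the other 3 16p11.2+/- mice for 81 of 91 (51.9% of all genes).

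These 2 libraries also had the highest scores for thalamus, parvalbumin interneuron and mural cell markers. The mean log2 CPM of 5 parvalbumin interneuron markers was 7.08 in WT-1063 and 7.31 in DF-1037, against 5.67 to 6.80 in the other 6 mice, and that of 8 mural cell markers was 4.07 and 4.22 against 3.70 to 4.01. Single markers did not all follow these scores. By FPKM, another mouse was the highest for Slc17a6 of thalamus, Erbb4 and Syt2 of parvalbumin interneurons and Rgs5, Abcc9 and Pdgfrb of mural cells. For the remaining markers of these lists the highest mouse was WT-1063 or DF-1037. The part of each cell type in the member values was not tested beyond the fit on the thalamus score. The mean log2 CPM of the 7 thalamus markers was 3.203, 3.10, 3.09 and 6.49 in WT-1015, WT-1041, WT-1061 and WT-1063, and 5.71, 6.62, 3.29 and 5.82 in DF-1018, DF-1037, DF-1059 and DF-1062. Both WT-1063 and DF-1037 lay above the other 6 mice for 43 of 91 members (47.3%) and for 8.19% of all genes tested. In an edgeR fit with genotype and this score, the slope was positive for 88 of 91 members (96.7%) and for 50.6% of all genes. It had an unadjusted p under 0.05 for 22 members, all positive, against 8.48% of all genes in that direction and 4.29% in the negative one. After adjustment 0 members passed, against 0.782% of all genes. Among WT mice only WT-1063 had a high score (6.49, others 3.09 to 3.203). Among DF mice only DF-1059 had a low score (3.29, others 5.71 to 6.62). With genotype in the fit, the slope leans on these mice. The 22 p-values share them and are not independent, and the fit was added after seeing the data. DF-1018 and DF-1062 had high scores too, but the means of their members, 5.19 and 5.24, lay near the 5.09 to 5.21 of the 4 mice with low scores. By share of counts the members held 0.637% in DF-1018 but 0.711% in DF-1062, against 0.596% to 0.640% in those 4 mice.

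The steepest slope belonged to Cox6a2, with 0.44 log2 units per unit of score (SE 0.08, edgeR adjusted p = 0.0688). Cox7a1 followed with 0.22 (SE 0.12, adjusted p = 0.475). The second lowest p belonged to Atp5g1, a gene for the c-ring, with a slope of 0.19 (SE 0.04, adjusted p = 0.116). Its FPKM was 10.4, 10.6, 10.6 and 16.4 in WT-1015, WT-1041, WT-1061 and WT-1063, and 9.43, 16.4, 9.35 and 13.4 in DF-1018, DF-1037, DF-1059 and DF-1062, so that 3 mice of both genotypes stood above the rest. Its partner Atp5g2, which encodes the same mature protein, ranged only from 18.6 to 21.2 over all 8 mice, with a slope of 0.01 (SE 0.02). Ndufa10, Ndufa4 and Ndufb5 had slopes of 0.10, 0.13 and 0.10.

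**Figure D4:**
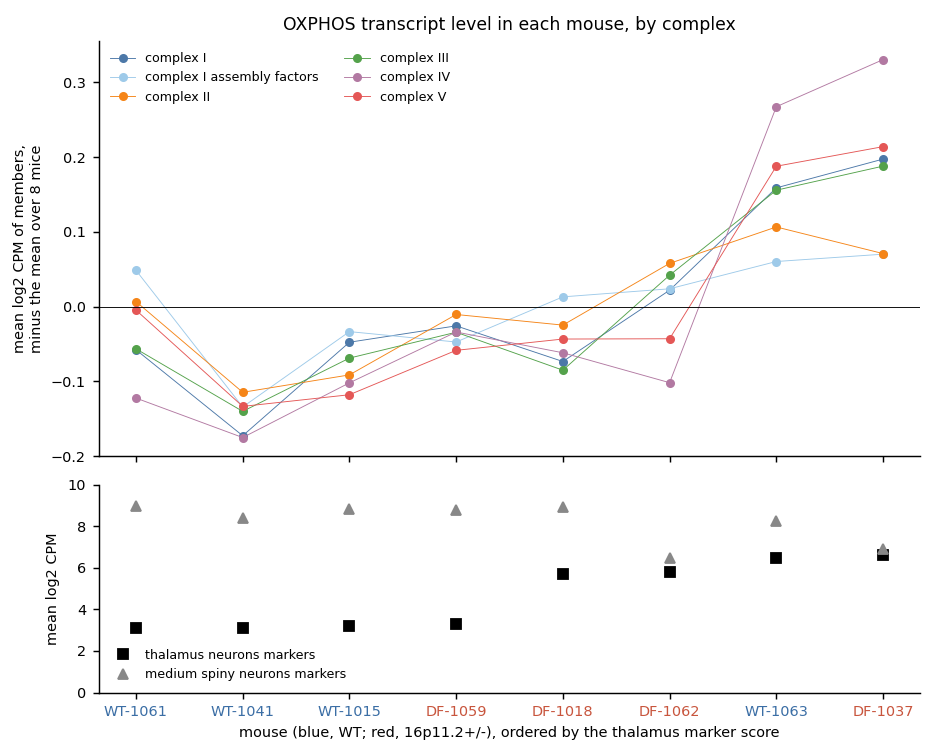
Upper panel, mean log2 CPM of the members of each complex in each mouse, minus the mean over the 8 mice, with thin lines only as a guide to the eye; lower panel, mean log2 CPM of the thalamus and medium spiny neuron markers. Mice are ordered by the thalamus score, and WT-1063 and DF-1037, at the right, are the highest in complexes I to V.

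The spread between mice was like that of genes in the members' middle range of level in 16p11.2+/- mice and wider in WT. The median CV of FPKM over the 91 members was 11.6% in WT and 12.05% in 16p11.2+/- mice. The 3133 genes with a mean FPKM between 12.9 and 47.7, the middle range of the members, had median CVs of 8.41% and 12.1%. The 91 members themselves ran from 1.34 to 215, so the levels are matched only in part. By complex the median CV in WT ran from 8.04% in complex II to 12.9% in complex V, and in 16p11.2+/- mice from 7.77% in complex II to 15.1% in complex IV.

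Not all members followed the same mouse. DF-1037 held the highest log2 CPM for 47 of 91 members and WT-1063 for 26, against 16.8% and 13.9% of all genes tested. WT-1041 was the lowest for 37 members and for 10.3% of all genes. DF-1062 was the highest for 13 members and the lowest for 16, where its shares over all genes were 20.3% and 21.9%. The members that were high in DF-1062 tended to have long transcripts: over the 91 members, the deviation of DF-1062 from the other 3 16p11.2+/- mice had a Spearman correlation of 0.51 with the length of the principal transcript, while for DF-1037 it was -0.46. For the other 6 mice it lay between -0.295 and 0.191. With the length of all exons, the correlation was 0.34 and -0.41 for DF-1062 and DF-1037 over members, and 0.01 and -0.12 over 17878 genes tested. These are descriptions across genes of single libraries, and DF-1037 and DF-1062 each enter the reference mean of the other, so their opposite signs are not independent. DF-1062 also had the lowest mean log2 CPM of the 13 mt-encoded subunits, 8.92 against 9.45 to 9.79 in the other 7 mice.

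**Figure D5:**
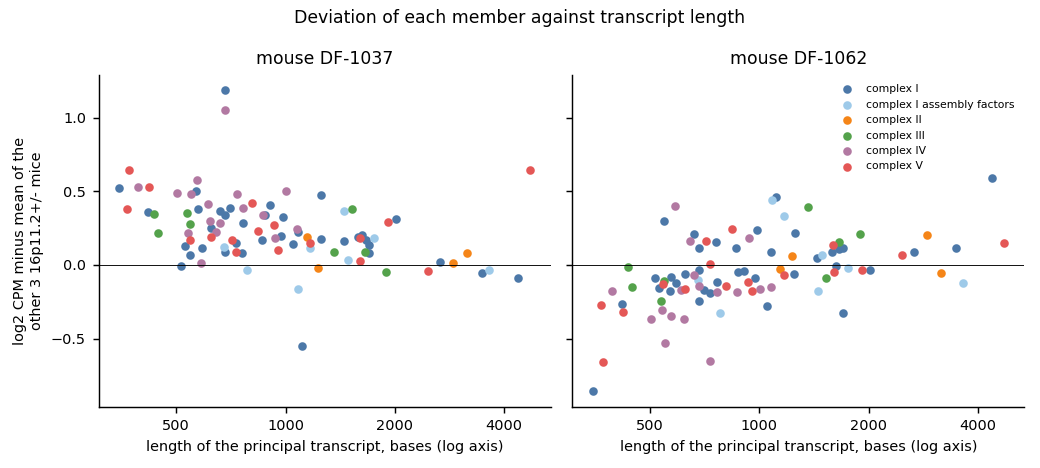
Deviation of each member's log2 CPM in DF-1037 (left) and DF-1062 (right) from the mean of the other 3 16p11.2+/- mice, against the length of its principal transcript in bases (log axis), coloured by complex. Short transcripts lie mostly above 0 in DF-1037 and mostly below 0 in DF-1062.

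Some members share promoter motifs, which the rule did not use. Promoters from RefSeq (GRCm38.p6, 250 bases before to 50 after the start) were matched for 74 of the 91 members and searched on both strands. Each motif was counted apart, also where it overlapped another. Nuclear respiratory factor 1 (NRF1) binds a GC-rich repeat that can be read in capitals below. This motif was present for 19 of the 74 members (25.7%) and for 5.19% of 27025 genes. The members had passed the filter on low counts, whereas the 27025 genes were not chosen by expression. The shares therefore compare unlike sets. The ETS motif CCGGAAG, which GABP binds, was present for 18 members (24.3%) and for 9.93% of genes, and the YY1 motif for 6 (8.1%) and for 1.0%. Members with the NRF1 motif came from all 5 complexes, among them Sdha, Sdhd, Uqcrc1, Cox6a1, Atp5c1, Atp5g3 and Ndufs5. The promoters of Cox6a1 (chr5:115348909-115349208, - strand) and Atp5h (chr11:115419870-115420169, - strand) are shown because they hold both the NRF1 and the ETS motif and belong to the members of that kind with the highest FPKM. The motifs, on either strand, are in capitals.
Cox6a1: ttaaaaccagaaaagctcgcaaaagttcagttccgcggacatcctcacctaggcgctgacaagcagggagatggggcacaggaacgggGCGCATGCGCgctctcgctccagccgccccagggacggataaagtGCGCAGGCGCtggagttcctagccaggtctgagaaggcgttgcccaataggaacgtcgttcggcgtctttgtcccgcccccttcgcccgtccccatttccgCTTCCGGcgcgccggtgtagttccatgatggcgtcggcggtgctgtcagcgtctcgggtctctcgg
Atp5h: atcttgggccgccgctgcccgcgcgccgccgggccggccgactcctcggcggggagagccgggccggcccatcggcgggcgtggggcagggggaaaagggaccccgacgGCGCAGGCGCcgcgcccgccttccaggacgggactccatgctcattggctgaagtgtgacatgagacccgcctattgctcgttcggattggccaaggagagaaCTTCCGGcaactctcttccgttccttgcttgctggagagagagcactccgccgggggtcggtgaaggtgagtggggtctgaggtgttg
Of the regulators of these genes, none of 14 passed the test. Nrf1 had log2 fold change -0.07 (SE 0.11), Gabpa -0.00 (SE 0.09), Yy1 -0.14 (SE 0.07) and the coactivator Ppargc1a 0.08 (SE 0.17). The nuclear receptor Esrrg varied with the mouse, with FPKM of 4.42, 3.69, 9.004 and 16.3 in WT-1015, WT-1041, WT-1061 and WT-1063, and of 10.7, 16.5, 7.12 and 10.7 in DF-1018, DF-1037, DF-1059 and DF-1062. WT-1063 and DF-1037 were again the highest mice, as they were for Esrra, Esrrb and Ppargc1a. For Gabpb1 (FPKM 2.77 and 2.73, others 3.07 to 3.55) and Tfb1m (1.30 and 1.26, others 1.34 to 1.81) they were the lowest. The remaining regulators had neither pattern.

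In related gene lists no gene passed the adjusted test. Of the 13 subunits encoded in mitochondrial DNA, 6 were positive and 7 negative, and the median of the list was -0.01. An unadjusted p under 0.05 in edgeR, which 4.32% of all genes tested had, was found for 2. These were mt-Co2 (log2 fold change -0.66, SE 0.24) and mt-Atp6 (-1.16, SE 0.46). Their mean FPKM in WT, 244 and 495, lay far below the 11850 of mt-Co1. The search for near-identical copies did not cover the mt-encoded genes. FPKM of mt-Atp6 was 782, 683, 231 and 285 in WT-1015, WT-1041, WT-1061 and WT-1063, and 355, 162, 237 and 140 in DF-1018, DF-1037, DF-1059 and DF-1062, so the genotypes overlapped and WT-1015 and WT-1041 stood apart. Of 39 further OXPHOS genes tested, which encode cytochrome c, cytochrome c1 and assembly factors, 29 were positive, with a median of 0.09, and 1, the complex II assembly factor Sdhaf3, had an unadjusted p under 0.05 in edgeR (log2 fold change 0.34, SE 0.12). All 13 enzymes of the citric acid cycle were positive, none past the test, with a median of 0.11, and the largest value was that of the fumarase gene Fh1 (0.22, SE 0.12). Their mean log2 CPM was 6.87, 6.82, 6.96 and 7.10 in WT-1015, WT-1041, WT-1061 and WT-1063. It was 7.05, 7.13, 6.97 and 7.10 in DF-1018, DF-1037, DF-1059 and DF-1062. Every mouse with high thalamus markers, WT-1063, DF-1018, DF-1037 and DF-1062, thus lay above the other mice. The part of tissue makeup in this lean was not tested. Among 6 tested carriers of adenine nucleotides and phosphate and porins, 5 were positive and none passed, with a median of 0.07.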

How the data were processed

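RNA of the striatum was compared between 4 WT and 4 16p11.2+/- mice. The authors filtered the reads, mapped them with Hisat2 and counted them per gene with Htseq-count. They deposited the raw counts, not normalized, and also deposited FPKM, which is the count divided by the length of all exons and by the library total. The submitters' processing notes name Bowtie 0.12.2 and the builds mm8 and mm9, which differ from this. Positions come from GENCODE M21 (GRCm38), and no deposited coordinate was used. The authors' own table of fold changes and p-values was not used.

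Counts were tested with edgeR 4.0.16 (R 4.3.3; TMM, quasi-likelihood test after filterByExpr, set to 10 counts and a total of 15), adjusted over all 18294 genes with a threshold of 0.05. DESeq2 1.42.0 and limma 3.58.1 served as alternatives. Standard errors came from the F statistic. The procedure was tested on simulated data. CPM used a prior count of 2, and a marker score is the mean log2 CPM of its genes. Copies were found with blastn 2.17.0. Isoform ratios were compared with exact two-sided permutation tests.

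Members and lists were chosen with earlier results of these data known. Named genes were the isoform pairs, the 3 members of each complex with the highest FPKM, the 5 with the lowest p, any without overlap, those not tested and the one nearest the deletion. Any other gene was picked with its values in view. The slopes on the thalamus score, the near-identical copies, the comparison of lengths, the promoter motifs and the leaving out of 2 libraries together were added after seeing the data. The labels give no batch, and single mice are the replicates. The values of 1 member are not reported here on their own.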

Additional observations from a re-analysis of the deposited data

Results flagged for a closer look

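Each value below comes from 1 mouse whose gap to the nearest mouse of its genotype, divided by the whole range of the 4 mice, exceeded Dixon's 95% critical value. In all, 88 groups of 4 mice were examined (named members, complexes and isoform ratios), 9 were beyond it, and chance gives about 1 in 20.

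WT-1063 gave 5 of the 9. Its FPKM was 81.9 for Ndufa4 (others 57.6 to 60.0, ratio 0.898), 2.20 for Cox7a1 (others 0.854 to 0.912, ratio 0.956), 16.4 for Atp5g1 (others 10.4 to 10.6, ratio 0.959) and 104 for Sdha (others 86.9 to 88.5, ratio 0.905). The mean log2 CPM of complex IV was 4.99 in WT-1063 and 4.54 to 4.62 in the other WT mice (ratio 0.835).

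DF-1037 gave 3, namely Cox4i1 with FPKM of 177 (others 136 to 140, ratio 0.899), the mean log2 CPM of complex IV with 5.05 (others 4.62 to 4.68, ratio 0.843) and that of complex V with 6.37 (others 6.10 to 6.12, ratio 0.943). DF-1062 gave the last, Uqcrc2 with FPKM of 64.6 (others 51.0 to 53.3, ratio 0.832).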

How the results depend on the processing

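No member passed the adjusted test under any setting run (0 of 88 to 96 members). The median log2 fold change, 0.05, was positive throughout except with the thalamus score as a covariate (-0.03) and in the range over leaving out 1 mouse, -0.00424 to 0.104. Leaving out both libraries with the highest thalamus scores, chosen after seeing the data, gave 0.04 with 58 of 90 positive. Other scalings, DESeq2, voom, filters and log2 FPKM gave 0.0434 to 0.0689. No paired analysis was run, because the labels give no pairing of mice between the genotypes.

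Of 338 values of 31 named members under 11 settings, 29 changed sign and 0 passed the threshold. With the thalamus covariate these were Cox4i1 (-0.117), Cox6a1 (-0.015), Cox6b1 (-0.0286), Cox7b (-0.141), Cox8a (-0.0531), Ndufa4 (-0.115), Atp5g3 (-0.0387), Cox6a2 (-0.0831), Uqcrh (-0.0827), Atp5a1 (-0.014) and Atp5c1 (-0.00836). Cox8a was -0.0202 with voom, -0.000226 on log2(FPKM + 1) and -0.000306 on log2(FPKM + 0.1). Atp5g1 was 0.00149 with DESeq2, 0.00141 with RLE, 0.0175 with library totals, 0.00563 and 0.00501 on the FPKM scales and 0.0871 with its copy. Ndufb10 was 0.00771 with library totals and 0.0122 and 0.0125 on the FPKM scales, and Uqcr10 was 0.000488 with library totals. Without both high-thalamus libraries, Cox4i1 was -0.0154, Cox6a1 -0.00605, Cox8a -0.108, Cox6b2 0.138 and Ndufb10 0.0175. The cause was not tested.

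Leaving out 1 mouse turned 14 members: Atp5a1 (-0.00807 to 0.103), Atp5g1 (-0.185 to 0.177), Cox4i1 (-0.0995 to 0.0908), Cox6a1 (-0.0744 to 0.184), Cox6b1 (-0.0339 to 0.138), Cox6b2 (-0.635 to 0.105), Cox7a2 (-0.139 to 0.00893), Cox7b (-0.107 to 0.149), Cox8a (-0.126 to 0.131), Ndufa4 (-0.0599 to 0.183), Ndufb10 (-0.053 to 0.0563), Sdhd (-0.0307 to 0.055), Uqcr10 (-0.11 to 0.0721) and Uqcrh (-0.0412 to 0.114). The log2 ratio difference ranged from -0.0177 to 0.154 for Atp5g3 to Atp5g2 and from -0.519 to -0.248 for Ndufa4 to Ndufa4l2. On principal transcript length the mean levels were 464 (Atp5b), 85.9 (Atp5l), 296 (Cox4i1), 176 (Cox6c) and 213 (Cox8a). Low levels limit Ndufs6b, Cox6b2 and Cox7a1, and Cox6a2, with 26 to 98 counts, varied between mice. The intervals of these members were the widest.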
